A study of Homo sapiens with 38 samples.

Results

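LSD1 and the genes of its CoREST complex were followed at the RNA level in RKO, a human colorectal cancer cell line treated with LSD1 inhibitors. The 9 genes were chosen by name as the drug target, its paralogue and its CoREST partners: KDM1A, KDM1B, RCOR1, RCOR2, RCOR3, HDAC1, HDAC2, HMG20B and PHF21A. The naming rule uses no measured value. All 9 were found among the 25504 genes of the expression table, and all 9 were among the 10865 expressed genes, defined by a mean of at least 1 FPKM (sequenced fragments scaled to transcript length and to library depth). KDM1B was just inside that limit, with a mean of 1.02 FPKM. The cells were exposed to 0.1% DMSO alone or, in 0.1% DMSO, to 2 µM of NCD38 or of its conjugate NCD38-β2P4 or NCD38-β2PIPP, with RNA taken on day 4 or day 30. Each of these 8 conditions had 1 library, so a p-value below rests on the spread of the 4 treatments within and between the days, never on repeats of a condition. The labels name no genetic change of the line in any of the 8 libraries.

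LSD1, the protein of KDM1A, removes mono- and dimethyl marks from lysine 4 of histone H3, a mark of active promoters and enhancers, and needs the cofactor FAD. On nucleosomes it works within the CoREST complex, in which a scaffold protein (RCOR1, RCOR2 or RCOR3) holds the demethylase together with the deacetylases HDAC1 and HDAC2, and DNA-bound repressors such as REST bring the complex to its genes. NCD38 is a small-molecule inhibitor of LSD1. In both conjugates it is joined through a β-alanine linker to a pyrrole-imidazole polyamide, a synthetic ligand of the DNA minor groove. P4 holds pyrrole units alone and reads runs of A and T, while PIPP holds an imidazole in place of a pyrrole and reads CG flanked by A or T. The study asked whether the attached polyamide shifts the inhibitor's effect on histone marks to chosen sequences.

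The libraries held an estimated 12500000 to 22900000 fragments. The difference between the days followed the GC content of the transcripts across 10075 annotated genes (Spearman's rho -0.684, across genes of the same 8 libraries), with GC-poor transcripts higher on day 30. On day 4 the NCD38 library stood apart, with a median log2 ratio of -0.21 to its DMSO library over all expressed genes, and the NCD38-β2PIPP library stood apart in the other direction, at 0.17. The part of GC content in the members' values was not tested beyond the values with its trend subtracted, and day cannot be told apart from any batch that the days formed. Epithelial KRT18 was found at 76.2 to 121 FPKM and intestinal CDX2 at 7.48 to 11.6 FPKM, whereas VIL1 was listed at 0 in all 8 libraries and CDH1 reached at most 0.0642 FPKM. EPCAM stood at 3.94 to 6.53 FPKM on day 30 and at 0.0922 to 0.867 FPKM on day 4. Fewer cells with a transcript and less of it in each cell cannot be told apart in these bulk libraries. Markers of leukocytes and endothelium were listed at 0 in all 8 libraries, and the summed fibroblast markers reached at most 0.0137 FPKM.

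The promoters are shown because the conjugates were built to read DNA letters. RefSeq entries on GRCh38.p14 gave 11 windows of 250 bases before a start site, covering 8 of the 9 members. RCOR2 had no entry, RCOR3 had 2 windows and PHF21A had 3. A run of 6 bases, each A or T, which reads alike on both strands, was present in 3 of the 11 windows and in 58.7% of all 35116 promoter windows of the same length. The CG letters with 2 bases of A or T on either side were in 0 of the 11 windows and in 13.9% of all. The 11 windows held 57.6 to 84% GC, against a median of 58% over all promoter windows. The part of GC content in these match rates was not tested. Overlapping matches were counted apart. The promoter of the drug target, KDM1A, held neither motif, the HDAC2 window held 2 overlapping A/T matches, and 1 of the RCOR3 windows held 4. These are written from 5' to 3' of the gene, with the bases of any A/T match in capitals, at chr1:23019218-23019467 on the plus strand for KDM1A, chr6:113971149-113971398 on the minus strand for HDAC2 and chr1:211259116-211259365 on the plus strand for RCOR3.
KDM1A: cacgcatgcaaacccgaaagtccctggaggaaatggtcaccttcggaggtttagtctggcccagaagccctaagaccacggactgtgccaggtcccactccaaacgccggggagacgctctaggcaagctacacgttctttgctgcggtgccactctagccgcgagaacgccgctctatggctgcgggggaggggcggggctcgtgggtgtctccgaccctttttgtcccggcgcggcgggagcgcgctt
HDAC2: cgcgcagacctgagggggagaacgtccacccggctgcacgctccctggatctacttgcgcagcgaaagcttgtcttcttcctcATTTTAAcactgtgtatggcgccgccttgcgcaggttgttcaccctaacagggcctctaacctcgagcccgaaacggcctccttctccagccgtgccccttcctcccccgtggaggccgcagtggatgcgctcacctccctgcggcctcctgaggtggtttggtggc
RCOR3: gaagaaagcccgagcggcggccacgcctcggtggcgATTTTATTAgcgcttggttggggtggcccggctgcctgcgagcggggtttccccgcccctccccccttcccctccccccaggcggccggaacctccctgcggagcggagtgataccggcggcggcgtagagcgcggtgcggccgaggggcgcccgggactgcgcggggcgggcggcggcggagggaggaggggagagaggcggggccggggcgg
A match is a description of these letters only, and binding of either polyamide at these windows was not measured here.

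KDM1A (chr1:23345936-23410182 on GRCh37, plus strand, 21 exons), the target of all 3 compounds, was an abundant transcript on both days. On day 30 it was measured at 42.0 FPKM in the DMSO library, 46.1 in that of NCD38, 45.6 in that of NCD38-β2P4, and 39.4 in that of NCD38-β2PIPP. On day 4 the same order of treatments gave 56.6, 38.0, 69.9 and 72.1 FPKM. The 4 libraries of day 30 lay close together, with a highest value 1.17 times the lowest, against 1.90 times on day 4. The days overlapped only through the NCD38 library of day 4, which was the lowest of the 8. KDM1B (chr6:18155560-18224085, plus strand, 22 exons) encodes LSD2, a demethylase of the same histone mark that acts without CoREST. It was the lowest member, at 0.896, 1.11, 1.31 and 0.691 FPKM on day 30 and 0.635, 0.476, 1.13 and 1.89 FPKM on day 4. Its lowest and highest values both belonged to day 4, with NCD38 and NCD38-β2PIPP, so the days overlapped throughout.

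Of the scaffolds, RCOR1 (chr14:103058986-103196898, plus strand, 12 exons) encodes CoREST itself, the protein that lets LSD1 act on nucleosomes. It stood at 4.06, 5.59, 5.15 and 3.94 FPKM on day 30, again from DMSO through NCD38 and NCD38-β2P4 to NCD38-β2PIPP, and at 4.31, 1.73, 6.46 and 9.52 FPKM on day 4. The day-4 range, in which the highest was 5.49 times the lowest, enclosed all 4 values of day 30. RCOR2 (chr11:63678702-63684636, minus strand, 12 exons), a CoREST paralogue known from stem and neural cells, was at 3.18, 3.96, 3.54 and 2.65 FPKM on day 30 and at 7.09, 9.49, 7.98 and 6.62 FPKM on day 4. No day-30 library reached the lowest of day 4, and on both days NCD38 gave the highest and NCD38-β2PIPP the lowest value. RCOR3 (chr1:211431719-211489727, plus strand, 12 exons), the remaining scaffold paralogue, gave 2.71, 3.13, 3.08 and 3.08 FPKM on day 30 and 2.60, 1.58, 2.53 and 3.72 FPKM on day 4. As for RCOR1, its day-4 values lay on both sides of those of day 30.

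The class I deacetylases remove acetyl groups from histones. HDAC1 (chr1:32757684-32799236, plus strand, 14 exons) was the most abundant member, at 66.5, 71.6, 73.0 and 62.7 FPKM on day 30 and 104, 80.8, 100.4 and 106 FPKM on day 4, in the same order of treatments. HDAC2 (chr6:114254192-114332472, minus strand, 14 exons) encodes its close paralogue, which shares the same complexes. Its transcript was at 10.7, 11.9, 12.5 and 10.9 FPKM on day 30 but at 1.11, 0.649, 2.14 and 3.57 FPKM on day 4. Neither gene overlapped between the days, and they lay in opposite directions, HDAC1 lower and HDAC2 higher on day 30. The HDAC2 values on day 4 spread 5.50-fold, again with NCD38 lowest and NCD38-β2PIPP highest. An antisense gene, HDAC2-AS2, overlaps HDAC2, and the strand setting of the counting is not given, so reads of the pair cannot be told apart.

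The accessory subunits also differed from each other. HMG20B (chr19:3572775-3579086, plus strand, 10 exons) encodes BRAF35, an HMG-box subunit that binds DNA, and stood at 52.7, 53.9, 44.4 and 54.1 FPKM on day 30 and at 70.4, 91.7, 73.4 and 68.9 FPKM on day 4. All day-4 values were above all day-30 values, and NCD38 gave the highest on day 4. It overlaps MFSD12 on the opposite strand, with the same limit on telling reads apart. PHF21A (chr11:45950870-46143005, minus strand, 19 exons) encodes BHC80, which reads unmethylated lysine 4 of histone H3. It gave 3.75, 4.49, 3.85 and 3.51 FPKM on day 30 and 1.85, 1.15, 3.14 and 3.58 FPKM on day 4. The days overlapped only through the NCD38-β2PIPP library of day 4. Opposite-strand genes overlap KDM1A, RCOR1 and PHF21A as well, so the limit on telling reads apart holds for these too. Among them are a long noncoding RNA gene at KDM1A and at PHF21A, and the pseudogene RPL23AP11 at RCOR1.

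**Figure D1:**
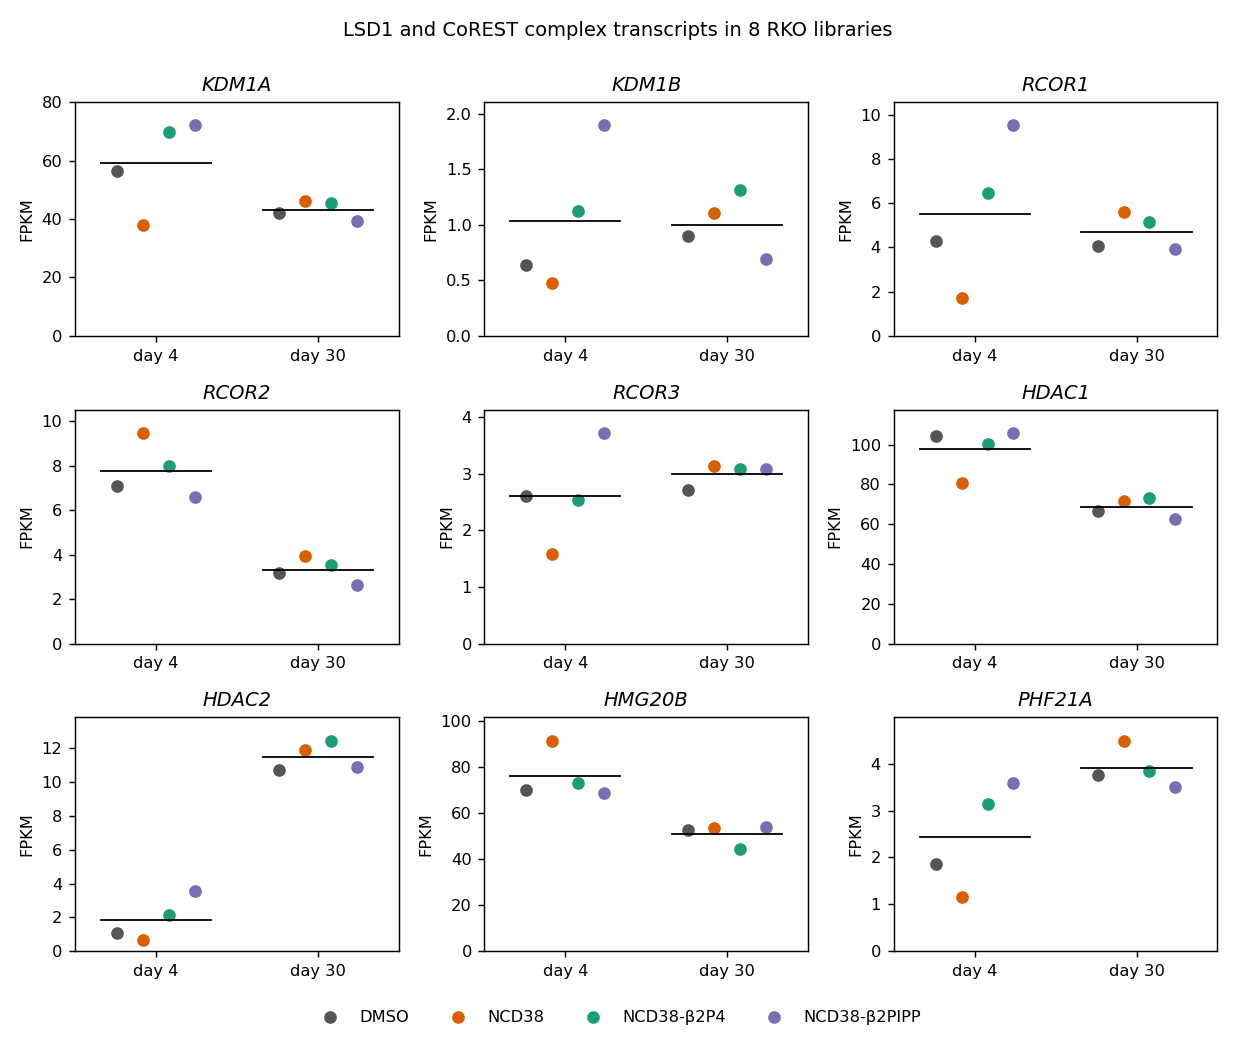
FPKM of each member on day 4 and day 30, with 1 point for each library coloured by treatment and a line at the mean of the 4 libraries of a day. HDAC2 rises from at most 3.57 FPKM on day 4 to at least 10.7 FPKM on day 30, RCOR2, HDAC1 and HMG20B lie lower on day 30 without overlap, and the day-4 points of RCOR1 and KDM1B spread around those of day 30.

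FPKM is divided by transcript length, so the members can be ordered by level, though the GC trend of the libraries remains in these values. Over all 8 libraries the means were 83.1 FPKM for HDAC1, 63.7 for HMG20B and 51.2 for KDM1A, followed by HDAC2 at 6.68, RCOR2 at 5.56, RCOR1 at 5.09, PHF21A at 3.16, RCOR3 at 2.80 and KDM1B at 1.02. On day 30, HDAC1 stayed above every other member in every library and HDAC2 stood alone in the middle, while KDM1A and HMG20B overlapped, as did RCOR1 with PHF21A and RCOR2 with RCOR3. On day 4 the range of HDAC2 overlapped those of PHF21A, RCOR3, RCOR1 and KDM1B. HDAC2 reached at most 3.57 FPKM there, below the lowest RCOR2 value of 6.62 FPKM. In the NCD38 library of day 4, HMG20B at 91.7 FPKM stood above HDAC1 at 80.8 FPKM. In all 8 libraries KDM1A stood above each of the 3 scaffolds, whose highest value was 9.52 FPKM.

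Between the days, HDAC2 rose and RCOR2, HMG20B and HDAC1 fell, while the other 5 members did not pass the test. limma was fitted to log2(FPKM + 1) of all 8 libraries with treatment as a block, and p-values were adjusted by the Benjamini-Hochberg method over 10865 genes. HDAC2 was 2.23 higher on day 30 on this log2 scale (95% interval 1.52 to 2.94, limma adjusted p = 0.00165), from a mean of 1.87 ± 1.29 FPKM on day 4 to 11.5 ± 0.829 FPKM on day 30 (SD over the 4 treatments). RCOR2 fell by 1.02 (interval -1.36 to -0.67, limma adjusted p = 0.00203), from 7.79 ± 1.26 to 3.33 ± 0.556 FPKM. HMG20B fell by 0.56 (interval -0.86 to -0.25, limma adjusted p = 0.0104) and HDAC1 fell by 0.50 (interval -0.83 to -0.18, limma adjusted p = 0.0191).

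These 4 of 9 members made up 44.4% of the list, less than the 61.9% of all expressed genes that passed the same test, so a difference between the days did not set the members apart. A single member was higher against 30.2% of all genes, and 3 members were lower against 31.7%. The libraries of the days did not overlap for the same 4 members, compared with 62.6% of all genes. For KDM1A the log2 difference was -0.40 (interval -0.91 to 0.10, limma adjusted p = 0.134), and for PHF21A it was 0.57 (interval -0.09 to 1.23, limma adjusted p = 0.109). RCOR3 at 0.18, RCOR1 at -0.04 and KDM1B at 0.02 had adjusted limma p-values between 0.455 and 0.954. The interval of RCOR1, from -1.01 to 0.93, allows about a 2-fold change in either direction.

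Some of these results changed when a library was left out. Leaving out a library removes its treatment from this comparison and leaves 2 residual degrees of freedom in place of 3. The part of that loss in the missed calls was not tested. Without the NCD38 library of either day, KDM1A passed at -0.63 (limma adjusted p = 0.00824 and 0.00943). HDAC1 missed the threshold without a library of DMSO (-0.46), NCD38-β2P4 (-0.52) or NCD38-β2PIPP (-0.42), with limma adjusted p between 0.0591 and 0.0938. HMG20B missed it without a NCD38-β2P4 library (-0.50, limma adjusted p = 0.0599 and 0.0644). HDAC2 and RCOR2 passed whichever of the 8 libraries was left out.

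The members differ widely in transcript GC content, from 37.8% for HDAC2 and 38.9% for RCOR3 to 63.7% for HMG20B and 64.2% for RCOR2. Genes in the same GC bin as HDAC2 had a median difference of 1.39 between the days, and those in the bin of RCOR2 and HMG20B had -0.78. With the GC trend of each library subtracted, 5 members passed, of which HDAC2 and HDAC1 had passed before. Of the 10075 annotated genes 5662 passed in that setting, so there too passing did not set the members apart. HDAC2 stayed higher on day 30, at 0.82 (limma adjusted p = 0.00153), and HDAC1 stayed lower, at -0.37 (limma adjusted p = 0.0240). PHF21A passed at 1.06 (limma adjusted p = 0.00506), RCOR3 at -1.03 (limma adjusted p = 0.00144) and KDM1B at -0.66 (limma adjusted p = 0.00721). RCOR2 no longer passed, at -0.22 (limma adjusted p = 0.132), and HMG20B turned to 0.24 (limma adjusted p = 0.0860). KDM1A was at -0.10 and RCOR1 at -0.28, neither past the threshold. Among the members, then, the opposite directions of HDAC2 and HDAC1 held with and without the GC trend.

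Shares among paralogues do not move with the scaling of a library, but can move with its GC trend where the paralogues differ in GC content. HDAC1 made up 86.1, 85.7, 85.4 and 85.2% of the summed HDAC1 and HDAC2 FPKM on day 30, in the order of treatments used above. On day 4 its share was 98.9, 99.2, 97.9 and 96.7%. The means were 85.6 ± 0.382% and 98.2 ± 1.12% (SD, n = 4 each), and the 2-sided exact permutation test gave p = 0.0286, the smallest that 4 against 4 libraries allow. Adjusted over the 3 shares tested, the exact p was 0.0857. HDAC1 transcripts hold 49.5% GC and those of HDAC2 37.8%. Genes in their GC bins had median differences of -0.14 and 1.39 between the days. The part of GC content in this share was not tested. KDM1A held 97.2 to 98.3% of the summed KDM1A and KDM1B FPKM on day 30 and 97.4 to 98.9% on day 4 (exact permutation p = 0.171, adjusted 0.257). Hence KDM1B made up under 3% of LSD1-family FPKM in every library.

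RCOR1 made up 42.3 ± 1.82% of the 3 scaffolds on day 30 and 32.6 ± 14.5% on day 4 (exact permutation p = 0.286, adjusted 0.286). The day-4 spread ran from 13.5% with NCD38 to 47.9% with NCD38-β2PIPP, through 30.8% with DMSO and 38.1% with NCD38-β2P4. In the day-4 NCD38 library RCOR2 took 74.1% of the scaffold FPKM, against 50.6% with DMSO, 47.0% with NCD38-β2P4 and 33.3% with NCD38-β2PIPP. Its share was 27.4 to 32.0% on day 30. RCOR2 has the highest transcript GC content of the scaffolds and RCOR3 the lowest, and the part of GC content in these shares was not tested.

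**Figure D2:**
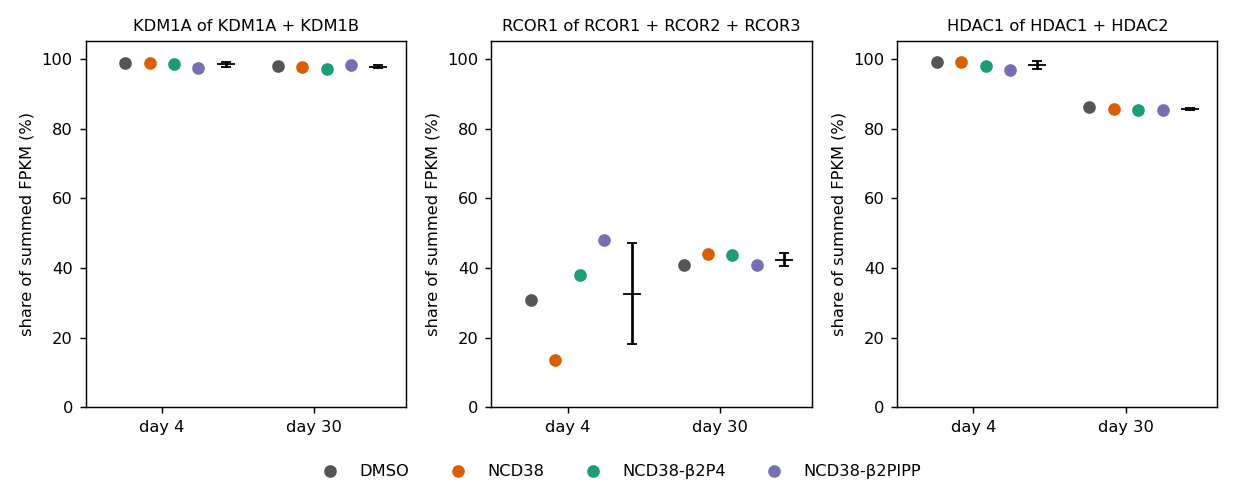
Share of summed FPKM, in percent, taken by KDM1A, RCOR1 and HDAC1 among their paralogues, with 1 point for each library and the mean with SD of the 4 libraries of a day beside them. The HDAC1 share lies at 96.7 to 99.2% on day 4 and at 85.2 to 86.1% on day 30, whereas the KDM1A share stays between 97.2 and 98.9% and the RCOR1 share spreads on day 4.

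The next question was whether inhibition of LSD1 moved the RNA of its own complex. Each inhibitor library was set against the DMSO library of its day as a log2 ratio of FPKM + 1. With 1 library on each side there is no test, and the half-widths given are 95% counting errors from the estimated fragments, on the same log2 scale, and cover counting only. On day 30 none of the 9 members was 1.5-fold from DMSO with any of the compounds. With NCD38 all 9 lay above DMSO, from 0.03 for HMG20B to 0.38 ± 0.15 for RCOR1, and KDM1A was at 0.13 ± 0.08. Over all expressed genes 59% lay above DMSO in that library, and 6.8% were 1.5-fold away. With the GC trend subtracted, 8 of 9 members lay above, beside 50.3% of the annotated genes, and HDAC2 was at -0.04.

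With NCD38-β2P4 on day 30, 8 of 9 members lay above DMSO, beside 62.1% of all expressed genes. RCOR1 was at 0.28 ± 0.16 and KDM1B at 0.28 ± 0.24, and HMG20B lay below at -0.24 ± 0.12. With the GC trend subtracted the count above DMSO was 5 of 9, beside 47.2% of the annotated genes. RCOR3 was then at -0.09, HDAC2 at -0.04 and PHF21A at -0.01. The 1.5-fold background was 2.3% of genes. With NCD38-β2PIPP the ratios ran from -0.20 ± 0.23 for RCOR2 to 0.14 ± 0.18 for RCOR3, with KDM1A at -0.09 ± 0.08, beside a background of 2.63%. So after the long exposure the transcripts of the complex lay at most 1.30-fold from DMSO on the FPKM + 1 scale, which makes differences of low genes smaller. With a pseudocount of 0.1, KDM1B with NCD38-β2P4 was 1.42-fold and RCOR1 with NCD38 1.37-fold of DMSO, still with 0 members past 1.5-fold.

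On day 4 the ratios were larger and differed in sign between compounds. With NCD38, 7 of 9 members lay below DMSO, beside 67.3% of all expressed genes. RCOR1 was at -0.96 ± 0.19, KDM1A at -0.56 ± 0.09, RCOR3 at -0.48 ± 0.23 and PHF21A at -0.41 ± 0.18. RCOR2 at 0.37 ± 0.19 and HMG20B at 0.38 ± 0.09, the members with the most GC, lay above. RCOR1 alone was past 1.5-fold, beside 24.6% of all expressed genes. In the NCD38 library of day 4 the ratio over all genes rose with GC content (Spearman's rho 0.590 across genes). With the GC trend subtracted, RCOR1 was at -0.31, KDM1A at -0.21 and HMG20B at 0.10. KDM1B turned from -0.15 to 0.44 and HDAC1 from -0.36 to 0.12. Then 5 of 9 members lay below DMSO, while 52.0% of the annotated genes lay above it. Past 1.5-fold were 0 members, beside 7.45% of those genes.

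NCD38-β2P4 on day 4 left 0 of 9 members past 1.5-fold, beside 9.54% of all genes. HDAC2 stood at 0.57 ± 0.16, PHF21A at 0.54 ± 0.17, RCOR1 at 0.49 ± 0.16 and KDM1A at 0.30 ± 0.07. The ratio over all genes fell with GC content (rho -0.535). With that trend subtracted HDAC2 was at 0.19, RCOR1 at 0.26, KDM1A at 0.25 and PHF21A at 0.52. In that setting 7 of 9 members lay above DMSO, beside 50.3% of the annotated genes. RCOR3 lay below it at -0.41 and HDAC1 at -0.18. NCD38-β2PIPP on day 4 put 4 of 9 members past 1.5-fold, all higher, beside 29% of all genes. These were HDAC2 at 1.12 ± 0.15, RCOR1 at 0.99 ± 0.14, KDM1B at 0.82 ± 0.23 and PHF21A at 0.68 ± 0.16, while KDM1A was at 0.34 ± 0.07 and HDAC1 at 0.02 ± 0.07. There the ratio over all genes fell with GC content (rho -0.693). After the trend was subtracted PHF21A was the only member past 1.5-fold, at 0.61, beside 10.3% of the annotated genes. RCOR1 was then at 0.50, HDAC2 at 0.29 and KDM1B at 0.15. RCOR3 turned from 0.39 to -0.44 and HDAC1 from 0.02 to -0.26. The other 7 of 9 members lay above DMSO, beside 47.6% of the annotated genes.

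**Figure D3:**
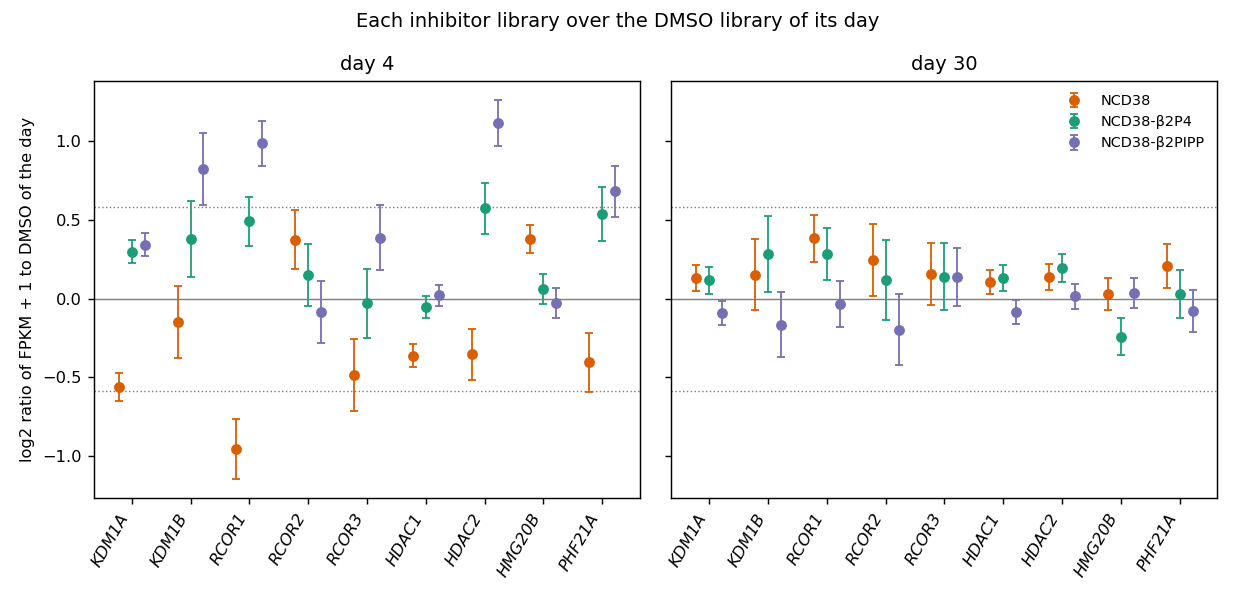
Log2 ratio of FPKM + 1 of each inhibitor library to the DMSO library of its day for each member, with 95% counting half-widths as bars and dotted lines at 1.5-fold. On day 30 every point lies inside the dotted lines; on day 4 RCOR1 lies below them with NCD38, and HDAC2, RCOR1, KDM1B and PHF21A lie above them with NCD38-β2PIPP.

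For a change common to both days, the limma fit compared the 6 inhibitor libraries with the 2 DMSO libraries. None of the members passed (all limma adjusted p = 0.9999), none had an unadjusted p under 0.05, and the log2 differences ran from -0.04 for HDAC1 to 0.28 for HDAC2. KDM1A was at 0.04 with an interval of -0.54 to 0.62, so changes of nearly 1.5-fold in either direction lie inside it. Of all genes 0.0276% passed. Taken singly against DMSO, which serves all 3 comparisons, NCD38 gave KDM1A -0.22 (interval -0.93 to 0.50), NCD38-β2P4 0.21 (-0.51 to 0.92) and NCD38-β2PIPP 0.13 (-0.59 to 0.84). No member passed in any of them, beside 0.0368%, 0.0184% and 0.0184% of all genes.

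The compounds share the inhibitor and differ in the polyamide, and 3 pairs were compared at the same labelled dose over both days. NCD38-β2P4 minus NCD38 gave 0.42 for KDM1A (interval -0.29 to 1.14) and 0.67 for RCOR1 (-0.69 to 2.04), and the lowest limma adjusted p of a member was 0.710, beside 0.0092% of genes that passed. NCD38-β2PIPP minus NCD38 gave 0.34 for KDM1A (-0.37 to 1.06), 0.67 for HDAC2 (-0.33 to 1.68) and -0.45 for RCOR2 (-0.94 to 0.04), with a lowest limma adjusted p of 0.530 beside 0.0184% of genes. Between the conjugates, which differ by an imidazole in place of a pyrrole, KDM1A differed by 0.08 (interval -0.63 to 0.80) and RCOR2 by 0.28 (-0.21 to 0.77), NCD38-β2P4 minus NCD38-β2PIPP. No member passed there by limma (all adjusted p = 1), and 0.0276% of genes passed. These intervals are wide enough to hold differences of 1.5-fold or more for most members, so the compounds were not shown to act alike.

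The genes that passed in these 7 comparisons, named after their values were seen, were 4 short RNA entries, MIR1909, MIR196B, MIR659 and SNORA1. Each was listed at 0 in at least 1 library, and none belongs to the complex.

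Within a day, with no test, the compound pairs differed most on day 4. RCOR1 was 1.94 higher and HDAC2 1.47 higher with NCD38-β2PIPP than with NCD38 on the log2(FPKM + 1) scale, and 0.81 and 0.29 higher with the GC trend subtracted. NCD38-β2P4 gave RCOR1 1.45 higher than NCD38 on day 4, or 0.57 with the trend subtracted. On day 30 RCOR1 stood at -0.42 for NCD38-β2PIPP minus NCD38 and at -0.10 for NCD38-β2P4 minus NCD38, on the other side of 0. With the trend subtracted these were -0.31 and -0.13. In these single libraries the order of the compounds on RCOR1 was not the same on both days, which was not tested.

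Genes that work with the complex were taken from lists. For all lists the differences between the days are those of FPKM as deposited. The GC trend was not subtracted for the list genes, and its part in their rises and falls was not tested. Of 16 recruiters and associates, 15 were in the table and 11 expressed, and between the days 2 rose and 2 fell. REST, the repressor that recruits CoREST to neuronal genes, rose by 1.07 (limma adjusted p = 0.0285). It ranged between 0.284 and 2.32 FPKM on day 4 and between 2.30 and 3.41 FPKM on day 30. ZMYM2, a zinc-finger partner of the complex, rose by 1.26, whereas its relative ZMYM3 and the corepressor CTBP1 both fell by 0.99. The median of the list was 0.01, against -0.02 for all expressed genes.

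NuRD and other complexes built on HDAC1 and HDAC2 had 16 members, all expressed, of which 5 rose and 7 fell between the days, with a median of -0.21. MIER1, an HDAC-binding scaffold, rose by 1.90 and MBD2, which reads methylated DNA, rose by 1.44. MBD3, its relative in NuRD, fell by 1.30 and MIER2 fell by 1.21. In a list of FAD supply and LSD regulators, 1 of 5 expressed genes rose and 2 fell. RFK, the kinase that starts FAD synthesis from riboflavin, rose by 1.53, and FLAD1, which completes it, fell by 0.91. PHF15, known as a ubiquitin ligase for LSD1, fell by 1.78. Over all expressed genes 30.2% rose and 31.7% fell, and nothing particular to these lists is read from their counts.

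Neuronal genes repressed through REST and CoREST are a known readout of the complex. Of 23 such genes 4 were expressed, VGF, TUBB3, CPLX1 and STX1A, and 8 were listed at 0 in all 8 libraries, among them STMN2, SCG3 and SYT4. SNAP25 reached at most 0.0594 FPKM, and SYN1 at most 0.447 FPKM. Between the days TUBB3, a tubulin of neurons and of many tumour lines, fell by 1.10 (limma adjusted p = 0.00180) and the other 3 did not pass. For any inhibitor against DMSO, 0 genes of any list passed, with all limma adjusted p = 0.9999.

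The genes whose pattern over the 8 libraries was most like that of KDM1A, among 5210 with a mean of at least 10 FPKM, were GLYR1, ZNF410, CAMSAP1, SH2B3 and TFDP1, with Pearson correlations of 0.990 to 0.993 of log2(FPKM + 1). GLYR1 ran from 11.1 to 24.8 FPKM and SH2B3 from 41.1 to 119 FPKM. Among the members the highest correlation with KDM1A was 0.86, for HDAC1, followed by 0.80 for RCOR1, and the lowest was -0.33, for HDAC2. RCOR2 and HMG20B, both rich in GC, correlated at 0.91, and both ran against HDAC2, at -0.94. These values describe 8 libraries that share a day and its GC trend, and carry no test.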

How the data were processed

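RNA-seq libraries of RKO cells were made with a kit that keeps the strand of mRNA. Per the labels, the authors deposited FPKM values for each gene in 1 table of 8 columns. The paper's methods name TopHat and Cufflinks, and the submitters' processing notes name HISAT2 2.2.1.0, BWA 0.5.9, Cufflinks, bedtools 2.20.1 and hg19, for RNA-seq and ChIP-seq together. The annotation and the strand setting are not given in the sources used here. For day 4 the paper's methods print mM where the labels give µM for the dose; the labels were used. FPKM holds no counts and an exact 0 may be a failed estimate. The depth of 12500000 to 22900000 fragments was estimated from the pile-up of low FPKM values at 1 fragment and is not a recovered count.

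Of 25594 entries, 90 with a repeated symbol were left out. limma 3.58.1 in R 4.3.3 was fitted (eBayes with trend) to log2(FPKM + 1) of 10865 genes with a mean of at least 1 FPKM, with day and treatment as terms and 3 residual degrees of freedom. P-values were adjusted by the Benjamini-Hochberg method over these genes and called under 0.05. A pseudocount of 1 makes differences of low genes smaller. Ratios within a day were counted past 1.5-fold. Python 3.11.15 with scipy 1.17.1 gave the exact permutation tests. GENCODE release 44 on GRCh37 matched 92.7% of the expressed genes and gave coordinates, lengths and GC content, whose trend was subtracted over 20 bins. Alternatives changed the pseudocount (0.1), the filter, the scaling, the GC trend, the block, the DMSO library and the libraries used. ChIP-seq data were not analysed here.

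The members, lists and tests were chosen with earlier results of these data known. Members were named in every comparison. From each list up to 2 genes in each direction with the largest called difference between the days were named, and the 5 genes most like KDM1A by correlation. Other list genes were named for their levels after values were seen.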

Additional observations from a re-analysis of the deposited data

Results flagged for a closer look

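Members were singled out where the log2 ratio to DMSO of the same compound had opposite signs on day 30 and on day 4, each beyond its counting half-width. With 1 library a condition, the difference between the days was not tested. With NCD38, 59% of all expressed genes lay above DMSO on day 30 and 67.3% below it on day 4. With NCD38-β2PIPP, 46.2% lay above DMSO on day 30 and 63.6% on day 4. The share of all genes that meet the rule was not counted, so nothing particular to the complex is read from the flagged members. With NCD38, KDM1A, the drug target, was at 0.13 on day 30 and -0.56 on day 4. RCOR1, its scaffold, was at 0.38 and -0.96. HDAC1 was at 0.10 and -0.36 and HDAC2 at 0.14 and -0.35, with opposite signs on the days for both deacetylases. PHF21A, the reader of unmethylated histone H3, was at 0.21 and -0.41. With NCD38-β2PIPP the order was the other way for KDM1A, at -0.090 on day 30 and 0.34 on day 4. With the GC trend subtracted, KDM1A with NCD38 was at 0.11 and -0.21 and RCOR1 at 0.28 and -0.31, and PHF21A at 0.18 and -0.16. The day-4 value of PHF21A then lay inside its counting half-width of 0.18, so PHF21A no longer met the rule. HDAC1 was then at 0.05 and 0.12 and HDAC2 at -0.040 and -0.00090, so the opposite signs were gone for both. KDM1A with NCD38-β2PIPP was at -0.08 and 0.20 with the trend subtracted.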

How the results depend on the processing

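The replicate numbers pair no libraries, each condition having 1, and the days were paired by treatment instead. The day comparison by limma sets day 30 against day 4 within each treatment. The permutation tests of the shares did not use this pairing. Without the treatment term in limma the same 4 members passed, beside 7277 of 10865 genes. With the GC trend subtracted, the day difference turned to -0.66 for KDM1B, -1.03 for RCOR3 and 0.24 for HMG20B. With the other day's DMSO library as comparator, the day-4 NCD38-β2PIPP ratios turned to -1.36 for HDAC2 and -0.054 for PHF21A. On day 30 the members past 1.5-fold then became 3 for NCD38 and 4 for each conjugate. Beside them stood 64.0% of all genes for NCD38, 65.1% for NCD38-β2P4 and 64.5% for NCD38-β2PIPP. On day 4 the members past 1.5-fold became 5 for NCD38, beside 71.6% of all genes. For NCD38-β2P4 they became 4, beside 59.7%, and for NCD38-β2PIPP 6, beside 55.7%. Over the DMSO library of the day, the count of 1 for NCD38 on day 4 became 4 with a pseudocount of 0.1, beside 38.9% of genes. It became 3 after rescaling, beside 24.7%, and 0 with the GC trend subtracted, beside 7.45%. For NCD38-β2P4 on day 4 the count of 0 became 3 with the pseudocount of 0.1, beside 20.6% of genes. For NCD38-β2PIPP on day 4 the count of 4 became 1 with the GC trend subtracted, beside 10.3%. After rescaling, HMG20B missed the threshold between the days (-0.55, limma adjusted p = 0.0572) and PHF21A passed (0.59, limma adjusted p = 0.0412).

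Genes that passed for any inhibitor over both days numbered 1 without a filter, 5 after rescaling and 1 with the GC trend subtracted, and 0 to 24 with 1 library left out. For NCD38 there were 2 without a filter and 0 to 21 with a library left out. For NCD38-β2P4 there were 4 with a pseudocount of 0.1, 1 without a filter, 1 with the GC trend subtracted and 0 to 20 with a library left out. For NCD38-β2PIPP there was 1 with the pseudocount of 0.1, 1 with the GC trend subtracted and 0 to 27 with a library left out. NCD38-β2P4 minus NCD38 gave 2 with the pseudocount of 0.1, 0 without a filter and 0 to 13 with a library left out. NCD38-β2PIPP minus NCD38 gave 0 without a filter and 0 to 27, and the pair of conjugates 0 without a filter and 0 to 27. Between the days 2184 to 3580 genes rose and 2382 to 3975 fell with a library left out. The HDAC1 share differed by -13.1 to -12.2 percentage points between the days with a library left out, the KDM1A share by -0.93 to -0.43 and the RCOR1 share by 3.42 to 14.9, where 4 against 3 libraries cannot give an exact p under 0.0571. The cause of these changes was not tested. With a library left out, differences that did not pass also changed sign: between the days KDM1B ran from -0.15 to 0.28 and RCOR1 from -0.48 to 0.31. For any inhibitor KDM1A ran from -0.11 to 0.19, RCOR1 from -0.10 to 0.48, RCOR3 from -0.060 to 0.16, HDAC1 from -0.13 to 0.051, HMG20B from -0.058 to 0.14 and PHF21A from -0.011 to 0.33, and RCOR3 was at -0.14 with the GC trend subtracted. Over all alternatives, the sign changed in 13 of 117 member differences between the days, 16 of 108 for any inhibitor and 32 of 216 ratios to DMSO.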
